A study of Homo sapiens with 34 samples.

Results

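RS4;11 is an established human cell line of B-cell acute lymphoblastic leukaemia (B-ALL) that carries the *MLL-AF4* fusion, and its transcriptome was measured after inhibition of CDK4/6. The samples were chosen by cell line and treatment: 3 samples given 1 µM palbociclib for 3 days and 3 given the solvent DMSO, 6 of the 34 samples of the series. For comparison, the same treatment was read in NALM-6 (*ETV6-PDGFRB*; 3 samples a group) and BV-173 (*BCR-ABL*; 3 palbociclib and 2 DMSO samples), and the knockdown of *CCND3* was read in RS4;11 itself. The knockdown cells (3 samples) and their scrambled shRNA controls (3 samples) carried a lentiviral U6 vector with TagRFP and were sorted on day 4 after transduction, so they differ from the palbociclib samples in day, vector and sorting. All lines were grown in RPMI1640 with serum, and poly(A) RNA was sequenced. Each comparison is from 1 cell line, and the labels do not say whether the replicates were separate cultures.

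The deposited table gave 1 level per gene and group, scaled by the authors within the pair of groups. There is therefore no SD, no interval and no test on any value below, the depth per sample is unknown, and a ratio has no replicate check. The table listed 15857 genes, of which 11492 had a mean of both levels of at least 20 and were compared. A gene is called higher or lower when the ratio of the palbociclib level to the DMSO level was at least 2-fold, a log2 ratio of 1 or -1, and "rose" and "fell" are used of such genes. No gene was listed at 0 and the lowest level was 0.145, and whether the levels of low genes were moderated before deposit is not given in the sources used here, so ratios that start from low levels are the least certain. In bulk RNA, fewer cells of a kind and less RNA per cell cannot be told apart.

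The median log2 ratio over all compared genes was -0.01. Several markers of B-cell precursors were at high levels in both groups. *PAX5*, the factor that holds B-lineage identity, was at 12387 with DMSO and 10021 with palbociclib, *CD79A* of the receptor complex at 11928 and 21607, and *VPREB1* of the surrogate light chain at 3138 and 6830.1. *HOXA9*, which MLL fusions are known to keep active, was at 1707 and 1987, and its partner *MEIS1* at 1421 and 1364. Of the marker list for this lineage, *MME* (CD10) and *CD34* were near 0 in both groups, at 3.98 to 6.05 and 0.331 to 0.333. *BLNK* of the same list was low, at 90.2 with DMSO and 75.1 with palbociclib. Among markers of other lineages, 9 of 20 monocyte and myeloid genes and 3 of 14 T and NK cell genes passed the level limit, with summed levels of 4055 and 3944 for the first list and 4828 and 5723 for the second. The T and NK genes that passed were *LCK*, *ZAP70* and *NKG7*, while *CD3D* stayed at 2.74 to 7.28.

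In the textbook pathway, D-type cyclins activate CDK4 and CDK6, which phosphorylate the retinoblastoma protein RB1 and its relatives. E2F factors are then released and drive genes of DNA replication. Later in the cycle the MuvB complex, with MYBL2 and FOXM1, drives genes of mitosis through a promoter element called CHR. Palbociclib blocks the kinase activity of CDK4/6, so that RB1 stays active and cells stop in G1. In B-cell precursors, cyclin D3 is the main D-type cyclin.

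The windows below show the words found most often in promoters of the replication list (E2F) and of the mitotic lists (CHR), and each comes from a gene of those lists, of the E2F list, of the S and M phase cyclins or of the condensin list. Sequences are of RefSeq, build GRCh38.p14, each 30 bases long and on the strand of the gene, upstream of the annotated start. Capitals mark the E2F word in the first 4 and the CHR word in the last 4.
E2F1, chr20:33686387-33686416, minus strand: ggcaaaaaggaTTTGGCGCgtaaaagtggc
CDC6, chr17:40287840-40287869, plus strand: cgaggccgggcTTTGGCGGgaggtgggaac
CDC45, chr22:19479884-19479913, plus strand: aggagccgtgaTTTGGCGGgagtcttgacc
PCNA, chr20:5126663-5126692, minus strand: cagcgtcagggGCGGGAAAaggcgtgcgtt
CCNB2, chr15:59105105-59105134, plus strand: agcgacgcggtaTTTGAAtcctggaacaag
PLK1, chr16:23678848-23678877, plus strand: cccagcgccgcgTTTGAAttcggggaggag
KIF4A, chrX:70290058-70290087, plus strand: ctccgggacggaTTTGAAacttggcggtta
MKI67, chr10:128126453-128126482, minus strand: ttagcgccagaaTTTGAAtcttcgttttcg
In PCNA the capitals are the reverse complement of the E2F word TTTCCCGC. All 8 genes fell with palbociclib, from *PCNA* at a log2 ratio of -3.32 to *MKI67* at -7.16.

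The words searched were TTTGGCGC, TTTCCCGC, TTTGGCGG and TTTCGCGC for E2F, TTTGAA and TTCGAA for CHR, and GTAAACA for the FOXO factors, each on both strands from 250 bases before to 50 after the start. No word of one family holds a word of another, and a promoter may hold several. Promoters were given for 9476 of the 11492 compared genes, and an E2F word stood in 5.97% of them. It stood in 17.0% of the 735 promoters of lower genes and in 2.80% of the 535 of higher genes. Of the 44 promoters of the replication list, 22 held an E2F word and 3 (6.82%) a CHR word. Of the 43 promoters of the mitotic lists, 32 (74.4%) held a CHR word and 5 (11.6%) an E2F word, where the CHR share of all compared genes was 11.1%. The CHR share was 24.1% for lower genes and 12.7% for higher genes, and 53 of the 100 promoters of genes that fell at least 16-fold held a CHR word. The FOXO word stood in 2.21% of all promoters and 2.62% of those of higher genes. These are matches of letters and not binding sites, and the E2F and CHR words are known from cell-cycle genes, so their presence in those lists is not independent of the lists.

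Cell-cycle genes of RS4;11 were far lower with palbociclib. Of the 11492 genes, 912 fell (7.94%) and 694 rose (6.04%), and the count of rises depends on the lowest level allowed: with none there were 1130 rises and 1121 falls, and with a mean level of at least 100 there were 461 and 786. The falls reached further: 126 genes fell at least 16-fold and 32 at least 64-fold, where 6 and 1 rose by as much. Joined, 11 lists of cell-cycle genes held 216 compared genes, of which 171 fell and 0 rose. These lists run from the pocket proteins, the E2F factors and the cyclins of S and M phase over replication, nucleotide synthesis, recombination and mitosis to chromatin and the nuclear envelope. They leave out the D-type cyclins with CDK4/6, where 1 of 4 compared genes rose, and the CDK inhibitors, where 0 of 4 passed the fold. Their median level with palbociclib was 13.3% of that with DMSO, and the median over the other 11276 genes was 100.2%. The lists held 70 of the 126 genes that fell at least 16-fold.

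**Figure D1:**
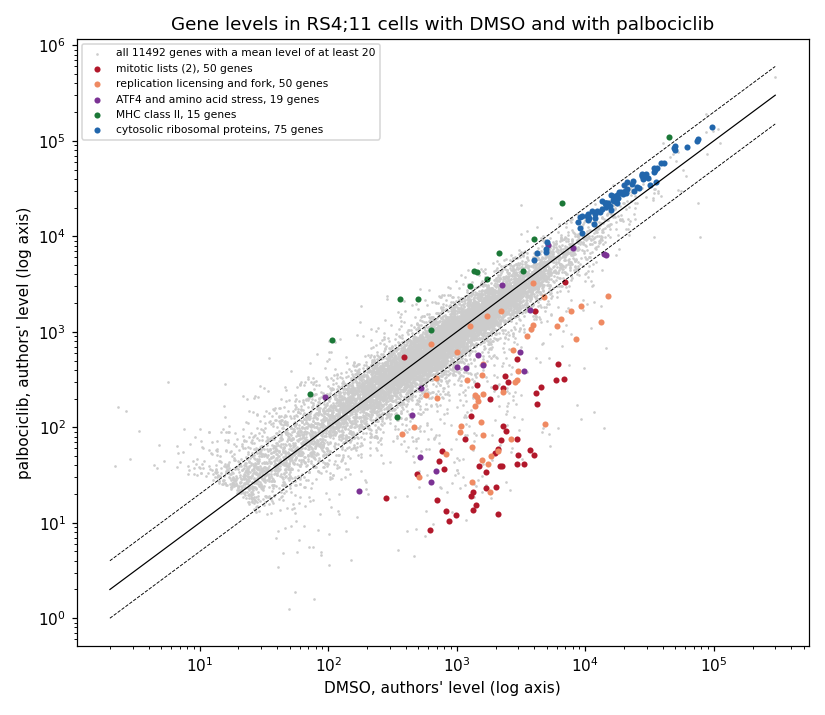
Each point is a gene of RS4;11, with the authors' level under DMSO on the x axis and under palbociclib on the y axis, both on log axes; the solid line marks equal levels and the dashed lines a 2-fold difference. Most genes of mitosis and replication lie under the lower dashed line, MHC class II genes lie mostly above the upper one, and ribosomal protein genes lie between the solid and the upper dashed line.

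The RNA of cyclin D3 stayed within 2-fold with the drug, and its protein was not measured in these data. *CCND3* (chromosome 6, 41934933 to 42050035) was at 17431 with DMSO and 14267 with palbociclib, a log2 ratio of -0.29, while its own knockdown lowered it by a log2 ratio of -2.27. Per kilobase of transcript its level with DMSO was 8360.2, far above 26.1 for *CCND1* and 0.214 for *CCND2*. *CCND1*, encoding the cyclin D1 partner of the same kinases, rose from 112 to 787 (log2 ratio 2.81), yet per kilobase it remained at 183 against 6842 for *CCND3*. *CCND2* was under the level limit, at 1.40 and 4.69. The kinases were within 2-fold, *CDK4* at 3806 and 2841 and *CDK6* at 28226 and 35593. Of the CDK inhibitors, 4 of 7 were compared and none passed the fold, with *CDKN1A* (p21) at 5793 and 4219.8 and *CDKN1B* (p27) at 1602 and 1944.

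Among the pocket proteins, *RB1*, the brake on E2F that CDK4/6 inactivate, was at 4034 and 2808 (log2 ratio -0.52) and *RBL2* (p130) at 2384 and 1799, both within 2-fold. *RBL1* (p107), known as an E2F target, fell from 2088 to 276. The activators of late cell-cycle genes fell furthest in this list: *MYBL2* from 9279 to 121 and *FOXM1* from 4606 to 88.5, log2 ratios of -6.26 and -5.70. In all, 5 of 10 genes of this list fell, the others being *LIN9* and *LIN54* of the MuvB core. The E2F list split in 2 parts. The activators *E2F1* (1976 to 118) and *E2F2* (2467 to 259) and the late repressors *E2F7* (591 to 31.7) and *E2F8* (1470.1 to 27.8) fell, with the dimer partner *TFDP1*. *E2F3*, *E2F4*, *E2F5*, *E2F6* and *TFDP2* stayed within 2-fold, between log2 ratios of -0.62 and 0.20.

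Of the cyclins and kinases of S and M phase, 12 of 13 fell, with a median log2 ratio of -3.47. *CCNE1* was the exception, at 241 and 143, whereas the other E-type cyclin, *CCNE2*, fell from 1116 to 46.1. *CCNA2*, the cyclin of S phase and G2, fell from 4691 to 98.1 and *CCNB2* of mitosis from 5255 to 85.1. *CDK1*, the mitotic kinase that they bind, fell from 2786 to 127, and *PKMYT1*, which restrains CDK1, from 1679.9 to 24.9. *CDK2* kept more of its level, at 423 of 2699, and so did *CDC25B*, an activating phosphatase, at 781 of 2798.

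Of the 50 genes of replication licensing and the fork, 44 fell and none rose, with a median level of 15.1% of DMSO (log2 ratio -2.73). Subunits of the MCM helicase kept between 9.40% and 21.2% of their level, *MCM4* being lowest (13303 to 1251) and *MCM2* highest (7751 to 1644). Among genes that load or activate that helicase, *CDC6* kept 2.68% (2083 to 55.8), *CDT1* 2.23% (4854 to 108), *CDC45* 2.05% (1309.5 to 26.8) and *MCM10*, which joins the helicase to the polymerase, 1.16% (1808 to 21.0). *PCNA*, the sliding clamp of the fork, fell from 8489.5 to 848. Of the origin recognition complex, *ORC1* and *ORC6*, its cell-cycle regulated subunits, fell to 2.90% and 8.31%, while *ORC2*, *ORC4* and *ORC5* stayed within 2-fold. The other 3 genes within 2-fold were *DBF4*, *POLD2* and *RPA2*.

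Of 26 genes of nucleotide synthesis, 13 fell and none rose. *TK1*, the thymidine kinase of S phase, fell from 2393 to 26.4, *TYMS*, which makes thymidylate, from 8545 to 171, and *RRM2*, the regulated subunit of ribonucleotide reductase, from 6091 to 98.9. *SHMT2* and *MTHFD2*, of one-carbon supply, fell from 8958 to 3886 and from 7762 to 2140.3. *GART*, *ATIC*, *IMPDH2* and *CAD*, of purine and pyrimidine synthesis, were within 2-fold, at log2 ratios of -0.43, -0.38, -0.20 and -0.81. *PAICS*, also of purine synthesis, fell from 12077 to 5319. *SAMHD1*, which degrades deoxynucleotides, was at 2092 and 3065.

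The mitotic genes fell further than those of replication. All 18 mitotic kinesins and cytokinesis genes fell, with a median level of 2.89% of DMSO, and 31 of 32 genes of the kinetochore, the checkpoint and the mitotic kinases fell, with a median of 3.97%. The kinesin *KIF20A* of the central spindle (chromosome 5, 138179112 to 138187723) showed the largest fall of all genes with a mean level of at least 100, from 2078 to 12.4, which is 0.595% of DMSO. With 10 added to both levels its log2 ratio was -6.55 and that of *MKI67* was lower, at -7.02. *PLK1*, a kinase of mitotic entry, fell from 3980.5 to 51.0, *AURKB* of the chromosomal passenger complex from 2959 to 41.0, and its partner *BIRC5* (survivin) from 2016 to 23.5. *CDC20*, which activates the anaphase-promoting complex, fell from 3329.9 to 40.8. *AURKA* fell less, from 1798 to 199, and *PTTG1* (securin) least of those that fell apart from *BUB3*, from 4067 to 1656. *MAD1L1*, at 389.8 and 539, was the 1 gene of the list within 2-fold.

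All 10 genes of the condensin list fell. The proliferation marker *MKI67* (chromosome 10, 128096659 to 128126423) fell from 13895 to 97.3, 0.700% of DMSO, and *TOP2A*, the topoisomerase that untangles chromosomes, from 11701 to 144. The core condensin subunit *SMC2* kept more, at 768 of 4679. Of 26 genes of homologous recombination and the Fanconi pathway, 23 fell, among them *RAD54L*, a motor protein of recombination, from 1398 to 24.4 and *BRCA1* from 2446 to 239. The kinase genes *ATM* (999 and 1477) and *ATR* (636 and 712), and *PALB2*, were within 2-fold.

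Chromatin and nuclear envelope genes with a role in S phase fell as well. *UHRF1*, which brings the maintenance methyltransferase to new DNA, fell from 13239 to 1862 and *DNMT1*, that enzyme, from 7098 to 1663, whereas the de novo enzyme *DNMT3A* was at 1224 and 1648. *EZH2* of Polycomb fell from 2049 to 534 and its relative *EZH1* was at 919.9 and 1149. Of 10 lamin and envelope genes 4 fell, *LMNB1* (lamin B1) from 7722 to 942 among them. Counts for these 2 lists were 6 of 11 and 4 of 10 lower, with none higher.

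**Figure D2:**
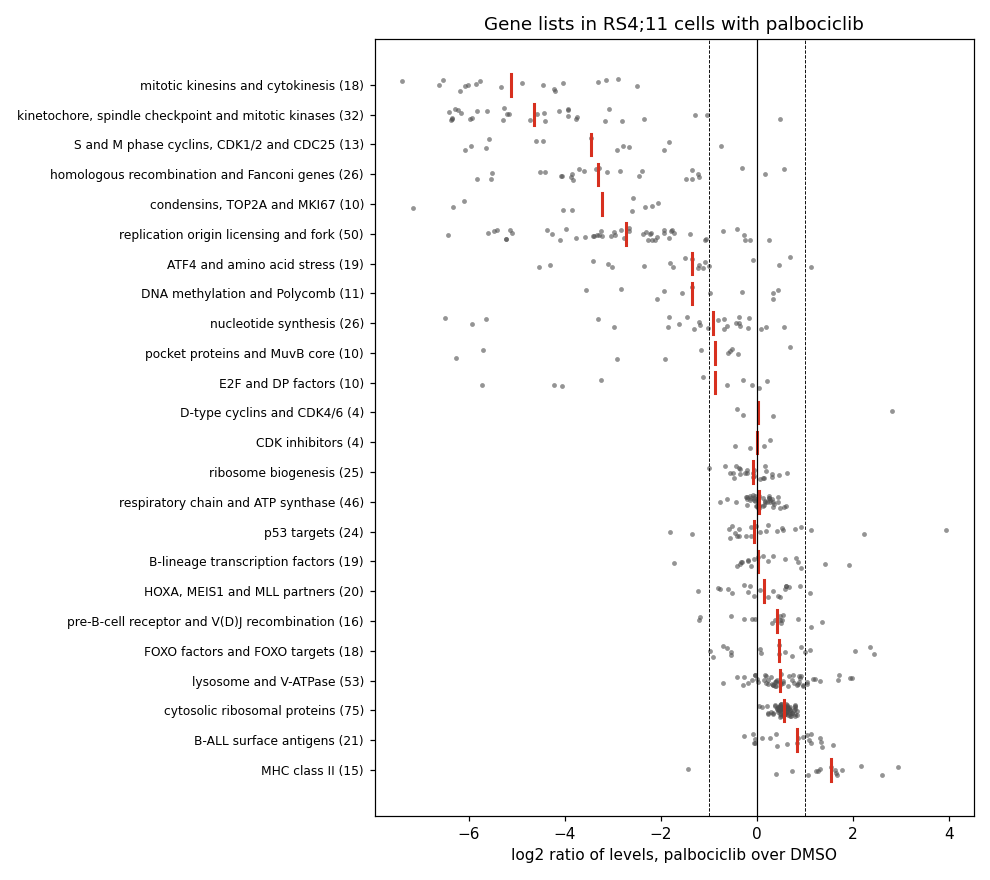
Each point is a compared gene of the named list (number of genes in brackets), placed by its log2 ratio of palbociclib over DMSO in RS4;11; red bars are medians and dashed lines mark 2-fold. The medians run from -5.11 for mitotic kinesins and cytokinesis to 1.54 for MHC class II.

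The 10 largest falls among genes with a mean level of at least 100 were *KIF20A*, *MKI67*, *APOBEC3B*, *TROAP*, *NEIL3*, *DLGAP5*, *KIF14*, *KIF4A*, *TK1* and *MCM10*, with log2 ratios from -7.39 to -6.43. *APOBEC3B*, a cytidine deaminase of DNA, fell from 2593 to 21.8, and *NEIL3*, a DNA glycosylase, from 465 to 4.51. *APOBEC3B* has close paralogs with which reads can be shared. *TROAP* and *DLGAP5*, both of the mitotic spindle, fell from 1180.3 to 10.8 and from 1849.6 to 18.4. Several of these end at low levels, so which genes are the 10 and their order depend on how low levels are treated: with 10 added to both levels *NEIL3* had a log2 ratio of -5.03 and *TROAP* one of -5.84.

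Among the genes past the fold, the 10 of highest level per length with DMSO held abundant chromatin and microtubule genes. *TUBA1B* and *TUBB*, encoding tubulins, fell from 77407 to 9803 and from 74766 to 22089.7. *HMGB2*, a chromatin protein of dividing cells, fell from 14557 to 669.7, *H2AFZ*, the histone H2A.Z, from 9502 to 1680.2, and *STMN1*, which destabilises microtubules, from 17164 to 6377. The sixth that fell was *ATF4*, taken up below. *CD74*, the invariant chain of MHC class II, rose from 44732 to 110346 and *S100A4*, a calcium-binding protein, from 4529 to 9685. *MTRNR2L2* and *MTRNR2L8* rose by log2 ratios of 1.13 and 1.23, but they are nuclear copies of the mitochondrial 16S rRNA and their reads cannot be told apart from it.

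The MHC class II genes rose nearly as a whole. Of 15 compared genes 12 rose, with a median log2 ratio of 1.54. *CIITA*, the master activator of these genes, rose from 1707 to 3567. The classical chains *HLA-DRA* and *HLA-DPB1* rose from 6561 to 22216 and from 1445 to 4203. *HLA-DMA* and *HLA-DMB*, which load peptide, rose from 498 to 2224 and from 107 to 822, the second by the largest fold of the list (7.66). *HLA-DOA*, the inhibitor of that loading, rose from 1258 to 3047. Of the RFX complex that binds class II promoters, *RFX5* and *RFXANK* were within 2-fold and *RFXAP* fell from 344 to 128. *HLA-DRB1* and *HLA-DRB5* also passed the fold, but reads of these alike genes can be split between them. The share of the class II list in the sum of all levels went from 0.346% to 0.876%. By contrast, 0 of 19 class I genes rose and 0 fell, with *B2M*, the shared light chain, at 50809 and 61377.

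Several surface antigens of B-ALL rose. Of 25 listed, 21 passed the level limit, 8 rose and none fell, where 6.04% of all compared genes rose and 7.94% fell. *CSPG4* (NG2), typical of *MLL*-rearranged leukaemia, rose from 4186 to 12453, and *CD44*, an adhesion receptor, from 1318 to 3338. *CD22*, an antibody target, was within 2-fold at 7772 and 13964, and *CD38* at 195 and 349. *CD24*, *CD52*, *CD72* and *CD74*, the class II invariant chain named above, were also among those that rose. *FLT3* and *IL7R*, growth factor receptors of early B cells, had log2 ratios of -0.27 and -0.05.

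Most B-lineage genes stayed within 2-fold, as did most of all compared genes, of which 6.04% rose and 7.94% fell. Of 19 B-lineage factors, *SPIB* (216 to 818) and *POU2F2* (108 to 286) rose and *IKZF2* fell (513 to 155). *EBF1* and *TCF3* were within 2-fold, at log2 ratios of -0.43 and -0.19. Of 16 pre-B-cell receptor and recombination genes, 2 rose, *VPREB1* among them, and *DNTT*, the enzyme that adds bases at V(D)J joins, fell from 215 to 94.4 together with *VPREB3*, from 1188 to 511. *RAG1* was at 5673 and 8294. Of the HOXA and MLL partner list, 1 of 20 rose, *HOXA3*, and 1 fell, *HOXA5*, while *HOXA7*, *HOXA10*, *KMT2A* and *AFF1* had log2 ratios of 0.44, -0.19, -0.77 and -0.60. A level of *KMT2A* or *AFF1* counts reads of both the normal genes and the fusion.

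Of the markers of mature B and plasma cells 1 rose and 1 fell, where 6.04% of all compared genes rose and 7.94% fell. Of 11 listed, 5 were compared: *JCHAIN* rose from a low start, 8.34 to 66.1, *SDC1* (CD138) fell from 1065 to 341, and *XBP1*, *IRF4* and *MZB1* were within 2-fold. The summed level of the list was 10631 and 9974. *MS4A1* (CD20), under the limit, was at 6.25 and 18.0.

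The genes of the ATF4 response fell. ATF4 is a transcription factor that is translated when amino acids are short or the endoplasmic reticulum is stressed, and its targets import and make amino acids. Of 19 compared genes 15 fell and 1 rose, with a median level of 39.3% of DMSO. *ATF4* itself fell from 13877 to 6545. *SLC7A11*, the cystine importer, fell from 628 to 26.9, *CHAC1*, which degrades glutathione, from 689 to 34.8, and *ATF3*, a stress-induced factor, from 522 to 48.6. *PHGDH*, the first enzyme of serine synthesis, fell from 3314 to 387 and *PSAT1*, the next one, from 3127 to 611. *ASNS* (asparagine synthetase) went the other way, from 95.0 to 206. The chaperone *HSPA5*, of the parallel unfolded protein branch, was at 5094 and 8154.

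**Figure D3:**
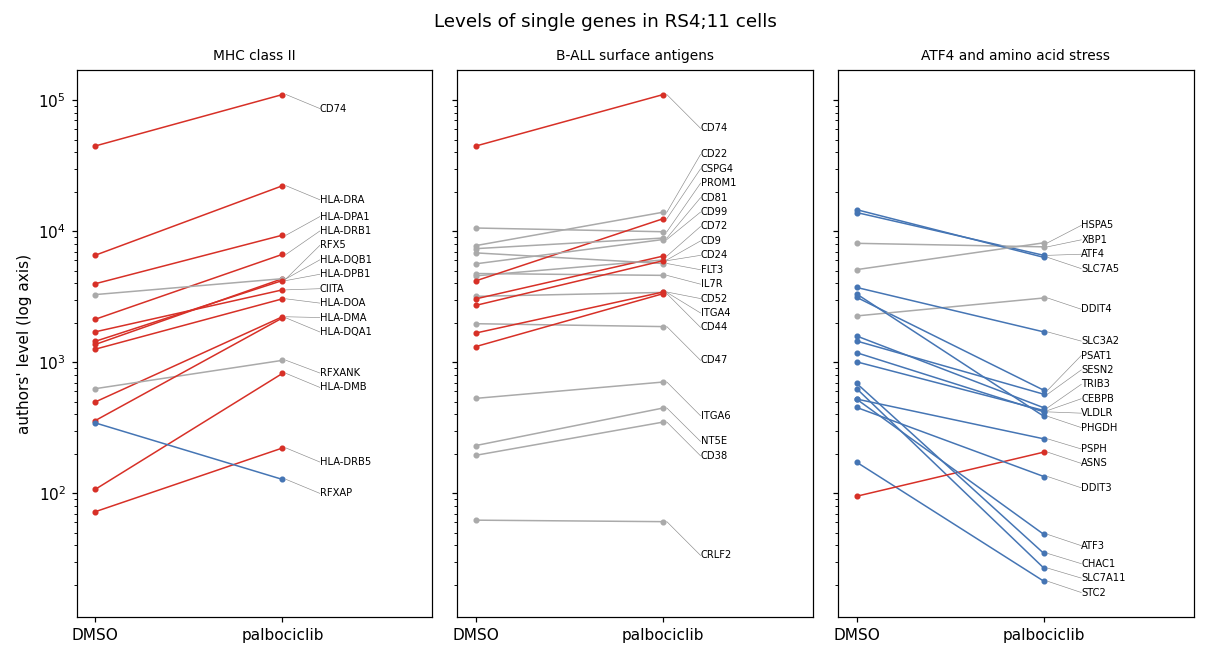
Each line is a gene of RS4;11, from the authors' level with DMSO on the left to that with palbociclib on the right (log axis), for genes of 3 lists; red lines rose at least 2-fold, blue lines fell at least 2-fold and grey lines did neither. In the class II panel *RFXAP* is the falling gene, and in the ATF4 panel *ASNS* is the rising one.

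Ribosomal protein genes moved together but little. All 75 were higher with palbociclib, by a median of 1.47-fold, and none passed 2-fold, since their log2 ratios ran from 0.04 to 0.83. Their share in the sum of all levels went from 8.77% to 12.7%. Genes of ribosome assembly did not do the same: 9 of 25 had a ratio above 1 and the median log2 ratio was -0.09. *NPM1* and *NCL*, abundant nucleolar proteins, were at 33738 and 23803 and at 15559 and 9786. *MYC*, which drives both groups, was at 8353 and 10112, and of its network *MXD4*, a repressor that competes for MAX, rose from 606 to 2729.

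Lysosomal genes leaned upward: 9 of 53 rose and none fell, and 45 had a ratio above 1. The shares of all compared genes, for this list and the FOXO list below, were 6.04% higher and 7.94% lower. *CTSD* (cathepsin D) rose from 3540.3 to 11486, *NEU1* (a sialidase) from 307 to 1166 and *ATP6V0A1*, a subunit of the proton pump, from 38.1 to 149.8. *TFEB*, the factor known for driving this group, was at 604 and 527. Of the FOXO list, 5 of 18 rose: *PIK3IP1*, an inhibitor of PI3K, from 386 to 2080.2, *SESN3* from 102 to 522, *GABARAPL1* of autophagy from 31.8 to 130.1, *TXNIP* from 862 to 1839 and *PINK1* from 495 to 995. *FOXO1* and *FOXO3* themselves had log2 ratios of 0.07 and 0.07.

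Some genes of cell death and p53 passed the fold, in both directions. Of 24 p53 targets, 3 rose and 2 fell, where 6.04% of all compared genes rose and 7.94% fell, so these counts are no result about the list. *TP53INP1* rose from 34.7 to 532, *BTG2*, which restrains the cell cycle, from 348 to 1626 and *ZMAT3* from 783 to 1708. *DDB2*, a repair gene, and *SESN2*, also in the ATF4 list, fell. Of 14 BCL2 family genes 2 rose and 1 fell, which is no result about that list either. The death gene *BMF* rose from 369 to 1530.5 and the survival gene *BCL2A1* from 9.55 to 47.0, while the death gene *PMAIP1* (NOXA) fell from 2663 to 1038. *BCL2*, *MCL1* and *BAX* had log2 ratios of 0.12, 0.03 and -0.13. *PIM1*, a survival kinase of the JAK-STAT list, fell from 740.1 to 23.6, and no other of the 14 genes of that list passed the fold.

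Among the 10 largest rises at a mean level of at least 100, *FCER1G* (chromosome 1, 161215295 to 161219245), the signalling chain of Fc receptors in myeloid cells, went from 5.71 to 299.6. Its start is low, so the size of the ratio is uncertain; with 10 added to both levels the log2 ratio was 4.30 in place of 5.71. Of the myeloid marker list, *CD33* rose from 90.6 to 229 and *CEBPB* fell, while *CD14* stayed at 0.369 to 0.279 and *SPI1* at 1652 and 2011; the part of these genes in the rise of *FCER1G* was not tested. Next came *TMEM150A* (15.6 to 286), *TP53INP1*, *HIST1H2BK* (180.4 to 1858) and *HIST1H2BD* (21.7 to 211). The last 2 encode histone H2B, and poly(A) selection counts only their polyadenylated transcripts. *THSD4*, *TJP1*, *P2RY11* and *VWA5A* were also among the 10, with log2 ratios from 2.97 to 3.19. Of the 10 compared genes of the list of secreted factors often named with senescence, 1 rose, and *VEGFA* (873 to 219.7) and *CSF1* fell. Of all compared genes 6.04% rose and 7.94% fell, so with 10 genes these counts are no result about the list.

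Set beside the other lines, the log2 ratios of falling genes reached lower values in RS4;11. In NALM-6, 901 genes fell (8.12% of 11101) and 898 rose (8.09%), and in BV-173 654 fell (6.05% of 10810) and 499 rose (4.62%). At least 16-fold falls were counted for 126 genes in RS4;11, 12 in NALM-6 and 1 in BV-173. For the kinetochore and mitotic kinase list RS4;11 had a median log2 ratio of -4.66, NALM-6 one of -3.23 and BV-173 one of -1.73, and 28 of 32 genes were lower in RS4;11 than in NALM-6. For mitotic kinesins and cytokinesis 18 of 18 were lower than in NALM-6 and 18 of 18 lower than in BV-173. For replication the medians were -2.73, -2.07 and -1.29. Not every list was lowest in RS4;11. In the same order of lines, the medians were -1.35, -1.02 and -1.51 for the ATF4 list. For the pocket proteins and MuvB core they were -0.88, -1.05 and -0.98. These differences were not tested, since each table holds 1 level per group, and each line was scaled with its own control.

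**Figure D4:**
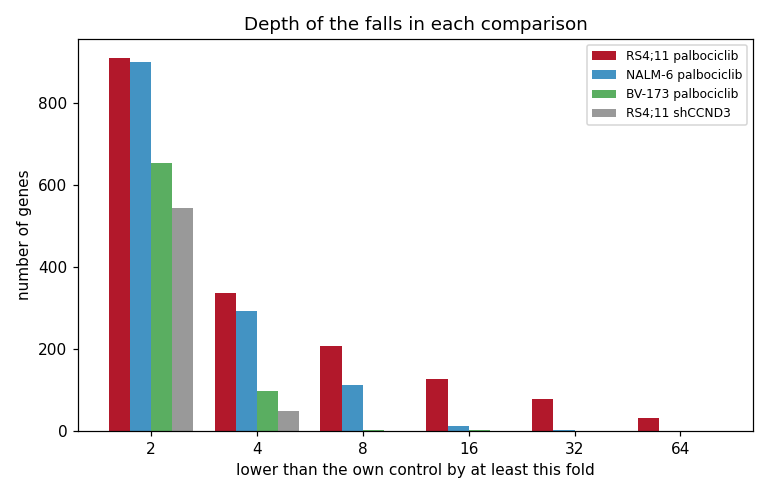
Bars give the number of genes whose level was lower than in the own control by at least the fold on the x axis, for 4 comparisons, among genes with a mean level of at least 20. At 16-fold the counts are 126 for RS4;11 with palbociclib, 12 for NALM-6, 1 for BV-173 and 0 for the knockdown.

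The overlap between lines was counted over genes compared in both. Of the 828 genes that fell in RS4;11 and were compared in NALM-6, 580 (70.0%) fell there too, which is 68.4% of the 848 that fell in NALM-6 among genes compared in both. In BV-173, 452 of 812 (55.7%) fell, 72.2% of the 626 that fell there. For rises the shares were 257 of 489 (52.6%) in NALM-6 and 187 of 477 (39.2%) in BV-173, which are 35.4% and 43.3% of the rises of those lines. Of the 786 falls compared in all 3 lines, 398 passed the fold in every line and 183 in RS4;11 alone. The second count depends on the 2-fold limit. Of the 828 RS4;11 falls compared in NALM-6, 791 (95.5%) had a ratio below 1 there, and of the 812 in BV-173, 779 (95.9%) did. Over all compared genes 8.12% fell in NALM-6 and 6.05% in BV-173.

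By the smaller of the differences from NALM-6 and BV-173, the 8 genes lowest in RS4;11 were *KIF20A*, *MKI67*, *TK1*, *BIRC5*, *PCLAF*, *MYBL2*, *RRM2* and *FAM111B*. For *MKI67* the log2 ratios were -7.16 in RS4;11, -2.93 in NALM-6 and -2.55 in BV-173, and for *RRM2* they were -5.94, -2.26 and -1.49. All 8 fell in all 3 lines, so the difference is one of depth. The 8 genes highest in RS4;11 were *ASNS*, *NDRG4*, *MARCH3*, *IGFLR1*, *RAB43*, *CBLB*, *VNN2* and *RGL1*. *ASNS* had log2 ratios of 1.12, -1.54 and -2.50, a rise in RS4;11 and a fall in both others. *NDRG4* had 1.35, -0.92 and -0.83, and *CBLB*, a ubiquitin ligase that dampens receptor signalling, 1.84, 0.17 and 0.13. The class II rise was of like size in the lines, with medians of 1.54, 1.18 and 1.36. Ribosomal protein genes had medians of 0.55 in RS4;11, 0.05 in NALM-6 and 0.56 in BV-173.

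Knockdown of *CCND3* in the same line moved fewer genes, most of which also moved with palbociclib. It lowered 545 genes (4.71% of 11581) and raised 369 (3.19%). Of the 535 that fell with knockdown and were compared in both, 476 (89.0%) also fell with palbociclib, and they are 52.5% of the 906 palbociclib falls. Of 329 rises with knockdown, 214 (65.0%) also rose with palbociclib, and they are 32.1% of the 666 palbociclib rises. Across the 11385 genes compared in both, Pearson's r of the log2 ratios was 0.81, with NALM-6 0.77 over 10514 genes and with BV-173 0.70 over 10413. Genes are not independent replicates, and the RS4;11 pair shares the cell line but no sample. The medians of the mitotic kinase list were -4.66 with palbociclib and -1.59 with knockdown, and no gene fell at least 8-fold with knockdown. For *CCND1* the log2 ratios were 2.81 and 1.70.

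The 8 genes lowest with palbociclib relative to knockdown were *KIF20A*, *MKI67*, *DLGAP5*, *APOBEC3B*, *BIRC5*, *CENPA*, *KIF4A* and *NEIL3*, with differences of log2 ratios from -5.76 to -4.85. Among the 8 highest were *ATP9A*, *P2RY11*, *EFEMP1*, *SMOC1*, *HYAL3*, *FOSB* and *FAM222A*. *ATP9A*, a lipid flippase, had a log2 ratio of 1.94 with palbociclib (566 to 2167) and -1.63 with knockdown (356 to 115), so it rose with one and fell with the other. *EFEMP1*, of the extracellular matrix, had 2.84 and 0.29, and *FOSB*, an early response factor, 2.12 and 0.03. *P2RY11* overlaps its neighbour *PPAN*, with which it can share reads. The other way round, *CDK8* of the Mediator kinase module was at 724 and 573 with palbociclib, a log2 ratio of -0.34, and at -1.10 with knockdown. The study singled out 12 genes on these same samples as regulated by the knockdown alone, *CDK8* among them. Few calls with palbociclib are therefore part of how they were chosen, and their count is no result about them. Of these 12, 1 rose with palbociclib, *RENBP* of hexosamine metabolism (1.43, with knockdown 1.62), and 1 fell, *ACBD7* (-1.32 and -1.60). Of all compared genes 6.04% rose and 7.94% fell.

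**Figure D5:**
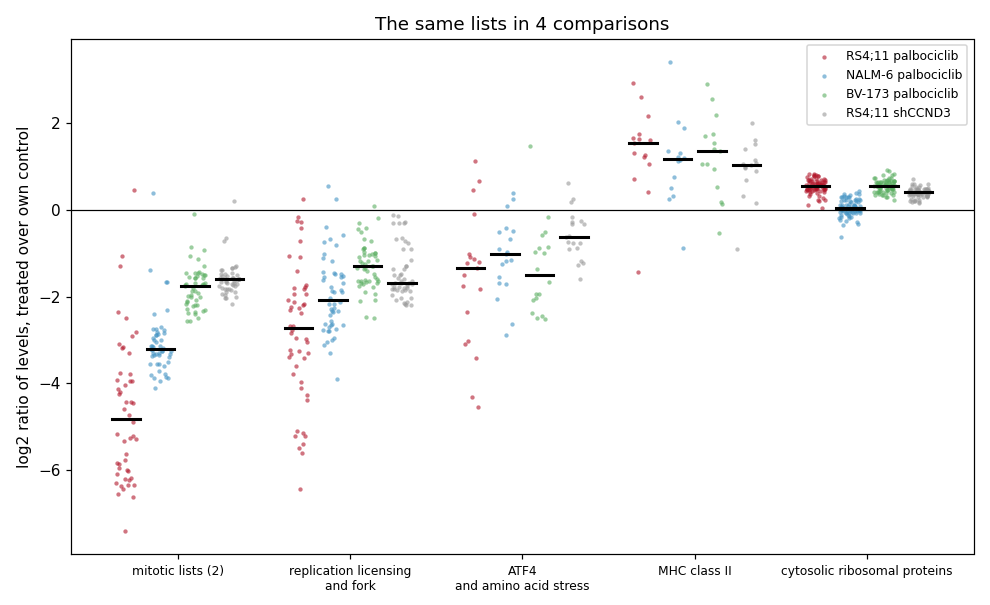
Points are genes of 5 lists, placed by the log2 ratio of the treated level over that of the own control in 4 comparisons; black bars are medians. RS4;11 with palbociclib has the lowest medians of the 4 for the mitotic and replication lists, whereas the class II medians lie between 1.04 and 1.54.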

How the data were processed

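RNA-seq of RS4;11 cells with palbociclib or DMSO (3 samples each) was read with 3 other comparisons of the series. Per the labels and the series' design text, reads were cleaned by the authors with SOAPnuke, aligned to hg38 using Bowtie2, quantified per gene using RSEM and compared between groups using DESeq2 (versions not given in the sources used here). The deposited tables hold 1 signal per group, a level scaled by the authors within the pair, beside gene length. They also hold the authors' own log2 fold changes, p-values, adjusted p-values and calls, which were neither used nor compared. The planned tests per sample could not be run on 1 level per group. Other tables were not used here. Some genes that the rules name are not reported here.

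The log2 ratio of the 2 levels was computed with no pseudocount for genes with a mean level of at least 20, and a gene passed at 2-fold. The arithmetic of this step was checked on simulated levels with known folds. That check covers neither low levels nor the spread between replicates. Levels were set side by side only within a table. The 39 gene lists and 6 marker lists (915 symbols, 879 matched to the table by symbol or RefSeq identifier, 809 compared) and the samples were chosen with earlier results of these data known. Named genes were list members by place in the pathway, the 10 largest rises and falls, the 8 highest and lowest against both other lines and against knockdown (mean level of at least 100), and the 10 of highest level per length. Positions and promoters are of RefSeq, GRCh38.p14. Python 3.11.15, numpy 2.4.6, pandas 2.3.3 and matplotlib 3.10.9 were used.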

Additional observations from a re-analysis of the deposited data

How the results depend on the processing

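Without replicates in the table, leaving out each replicate was not run. No paired analysis was possible because each table holds 1 level per group. Against 694 rises and 912 falls, there were 1790 rises and 1888 falls at a fold of 1.5, and 122 and 336 at a fold of 4. Rises numbered 1130 with no lowest level and 461 with a lowest mean level of 100, so their count depends on the lowest level, while the falls stayed within 1.5 times. A pseudocount of 1 or 10, taking the median out and using only genes of the palbociclib tables of all 3 lines kept both counts within 1.5 times. All 180 medians of gene lists under 4 alternatives, and all 12 differences between comparisons under 2, moved by less than 1.5-fold. Of 80 values of named genes 71 did so too. The other 9, all with a pseudocount of 10, kept their direction with a smaller ratio, *KIF20A* at -6.55 among them.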

Other observations

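Lists of energy metabolism and oxidative stress had median log2 ratios between -0.31 (pentose phosphate) and 0.04 (sterol synthesis). Of all compared genes 6.04% rose and 7.94% fell, so counts in the lists of 10 to 27 genes are no result about them. None of 46 respiratory chain and ATP synthase genes passed the fold, and of 24 glycolysis genes 1 fell, *ENO2* (498 to 177). Of 25 sterol synthesis genes 1 rose, *TM7SF2* (587 to 1538), and of 10 pentose phosphate genes *PRPS1* and *PRPS2*, which make the ribose donor of nucleotides, fell (-1.15 and -1.62). Of 27 oxidative stress genes *SLC7A11* was the 1 that fell, and none rose.

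Of 33 interferon-stimulated genes 4 rose, with *ISG20* from 1164 to 3787 and *BST2* (tetherin) from 2016 to 4484, and 2 fell, with *HERC5* from 738 to 169.8, where 6.04% of all compared genes rose and 7.94% fell, so these counts are no result about the list. *TNF* rose from 192 to 559 and *LTB*, a ligand of lymphoid tissue, from 16.6 to 88.9, 2 of the 4 of 18 genes of the TNF list that rose. The integrins *ITGAX* (730.3 to 2374) and *ITGB2* (2423 to 5028) rose. Of 16 compared chemokine and homing receptor genes 5 rose and 13 had a ratio above 1. *CCR7*, from 60.3 to 25.2, was the 1 of that list that fell. Of 6 Mediator kinase module genes none passed the fold, and of the erythroid and stromal marker lists 2 of 12 and 3 of 11 were compared and none passed it.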
